A study of Mus musculus with 24 samples.

Results

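The comparison described here set isolated colon epithelial cells against pieces of the whole colon wall in mice that carry caNrf2, a form of NRF2 that is active without stress. Its members are 8 of the 24 libraries of the study, the 4 titled as transgenic epithelial cells and the 4 titled as transgenic colon on water, and they were chosen by those titles alone. All 8 came from mice of the strain C57Bl/6 with the genotype VilCre-CMVcaNrf2, and all are labelled as receiving no treatment. In this genotype Cre recombinase under the villin promoter, which is active in the intestinal epithelium, is combined with the caNrf2 construct. A wall sample was a piece 10 mm long, taken about 10 to 20 mm from the rectum. How the epithelial cells were isolated, and from which stretch of colon, is not stated by the labels. The study holds 6 groups in all, covering both genotypes and, for the wall, dextran sulfate sodium. Each group holds 4 libraries, although the design text mentions 3. The labels do not say that replicates came from separate animals, so every p-value below measures the spread between these libraries only.

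The colon wall is a stack of tissues. A single layer of epithelium lines the crypts and holds absorptive colonocytes, mucus-secreting goblet cells, hormone-secreting enteroendocrine cells, chemosensory tuft cells and the stem cells that renew them. Beneath it lie connective tissue with vessels and immune cells, then smooth muscle with its nerve plexuses and pacemaker cells. NRF2 is a transcription factor that is normally marked for degradation by KEAP1 and that, once stable, switches on genes of glutathione synthesis, quinone reduction, drug conjugation and NADPH supply. A bulk library of the wall averages all of these cells, and the comparison describes which transcripts were higher or lower in the isolated cells. By itself it cannot place a transcript inside or outside the epithelium, since the stretch and isolation of the epithelial cells are not stated.

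RNA was measured by sequencing, with estimated counts per transcript summed here to 23329 gene symbols. Totals ran from 7736523 to 15399862 counts in the epithelial libraries and from 21493177 to 154336039 in the wall, so the wall was read more deeply. Levels are given as CPM, always in the order of replicates 1 to 4. For CPM, counts were scaled to the library's total over genes that passed the filter on low counts, multiplied by its TMM normalization factor. In the transgenic libraries these factors ran from 0.864 in epithelial replicate 1 to 1.06 in epithelial replicate 3. A fold change is given as log2 of epithelial cells over wall ± its standard error, with a Benjamini-Hochberg adjusted p from edgeR's quasi-likelihood test over all 14506 genes that passed the filter on low counts. A gene is called higher or lower where that adjusted p is below 0.05. Where a gene list is given a level in a library, that score is the mean of log2(CPM + 1) over its members.

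Epithelial replicate 1 differed from its group for many lists, and wall replicate 2 for NRF2 target genes. Epithelial replicate 1 had an immediate early and heat shock score of 5.43, against 7.88 to 8.27 in the other 3, an endothelial score of 1.0 against 2.67 to 3.61, and a colonocyte score of 7.34 against 5.6 to 6.44. Wall replicate 2, the deepest library, had a Nqo1 level of 21.2 CPM against 105 to 123 CPM in the other wall libraries, and its glutathione score was 5.79 against 6.36 to 6.58. Over all genes it did not stand apart: Pearson correlations of log2 CPM were 0.991 and 0.99 with wall replicates 1 and 3, and wall replicate 4 had the lowest of the wall, 0.979 to 0.984. In the epithelial cells the correlations were 0.924 to 0.976, lowest between replicates 1 and 3. Counts that moved by more than 1.5 times without epithelial replicate 1 or wall replicate 2 are given with and without it.

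Across the genome the contrast was large in both directions. In the epithelial cells 2709 genes, or 18.7% of those tested, were called higher than in the wall, and 2863, or 19.7%, were called lower. Changes beyond 2-fold were more often downward: 1115 genes (7.69%) were called with a log2 fold change above 1 and 2168 (14.9%) with one below -1. In 40.4% of the genes tested the 4 epithelial values and the 4 wall values did not overlap. These shares are the background against which each gene list below is read. Without epithelial replicate 1 they were 22% higher and 25.5% lower, without wall replicate 2 14% and 15.4%, and without both 18.3% and 21.7%. The median log2 fold change over all genes tested was -0.005.

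**Figure D1:**
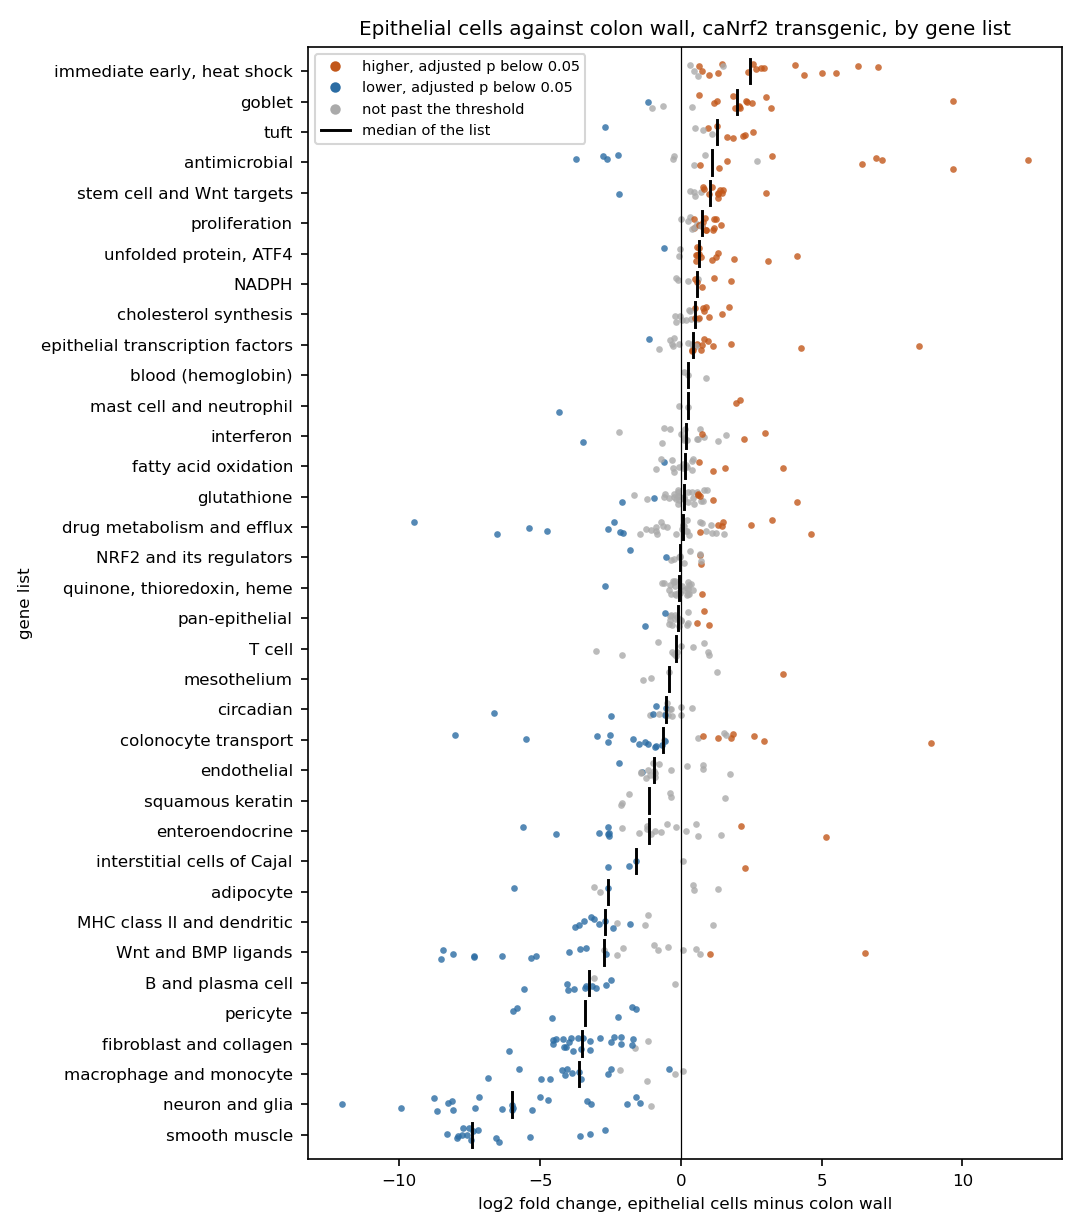
Log2 fold change of transgenic epithelial cells over transgenic colon wall (x axis) for each tested member of the gene lists named on the y axis, with orange and blue points for genes called higher and lower at an adjusted p below 0.05, grey points for the rest and a black bar at the list's median. All 16 smooth muscle genes lie on the left with a median of -7.43, while goblet cell genes have a median of 1.99 and pan-epithelial genes one of -0.10.

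Smooth muscle transcripts were nearly absent from the epithelial cells. All 16 smooth muscle genes tested were lower there, each by more than 2-fold and with no overlap between groups, and their median log2 fold change was -7.43. Acta2, smooth muscle actin (chromosome 19, 34241091 to 34255336 on the minus strand of mm10), was at 2.78, 6.3, 16.4 and 17.4 CPM in the epithelial libraries and at 2817, 2215, 2173 and 2163 CPM in the wall (-7.78 ± 0.60, adjusted p = 2.21e-05). Myh11, the smooth muscle myosin heavy chain, stood at 3.08, 8.53, 18.9 and 10.6 CPM against 2081, 1829, 2357 and 2496 CPM (-7.74 ± 0.54), and Tagln, an actin-binding protein of contractile cells, at 2.63, 12.3, 17.6 and 23.7 CPM against 2765, 2288, 2330 and 2454 CPM (-7.46 ± 0.61). For these 3 genes epithelial replicate 1 was the lowest library, and each wall library exceeded each epithelial one by far. In bulk samples such as these, fewer cells of a type and less RNA per cell cannot be told apart. The intermediate filament gene Des (-7.96 ± 0.44), the tropomodulin relative Lmod1 (-8.31 ± 0.45) and the filament gene Synm (-7.61 ± 0.26) fell by similar amounts. The smallest decrease among the 16 was that of Smtn, the contractile protein smoothelin (-2.69 ± 0.31). Myocd, the coactivator that works with SRF to drive this programme, had 2 counts over all 4 epithelial libraries, and its wall-over-epithelium ratio was 161 (95% counting interval 44.4 to 1330). Such ratios are given in place of the fitted value where a group has 1 to 3 counts, and their intervals cover counting error only. For them counts were pooled over each group, so wall replicate 2, the deepest library, weighs most in the wall. Ckm, the muscle creatine kinase, had the lowest fitted value of all abundant genes, with 2 epithelial counts and a wall-over-epithelium ratio of 627 (95% counting interval 173 to 5180).

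Because these genes fell together, their promoters were searched for the CArG box, the site bound by SRF. In RefSeq's promoter windows for build GRCm38.p6, each reaching from 250 bases before to 50 after the start, 12 of the 16 smooth muscle genes had an entry. On either strand 0 of these 12 held a strict CArG box, against 1.81% of all 27025 genes with a window. A search for boxes with exactly 1 inner C or G, which does not match strict boxes, was added after the strict count had been seen. In it 3 of 12 (25%) held a match, namely Acta2, Hspb6 and Synm, against 9.69% of all genes. A match is a description of letters, not of binding. The 250 bases before the start of Acta2, on the minus strand at chr19:34255374-34255623, are shown with both such matches in capitals, since Acta2 heads the smooth muscle list and its window holds both.
Acta2 promoter: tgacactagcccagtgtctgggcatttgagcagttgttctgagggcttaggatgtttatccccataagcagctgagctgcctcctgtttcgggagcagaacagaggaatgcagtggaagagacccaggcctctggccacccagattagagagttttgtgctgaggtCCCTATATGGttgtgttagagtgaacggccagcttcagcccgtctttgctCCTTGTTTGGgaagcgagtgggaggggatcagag

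Nerve, glia and connective tissue followed the muscle. Of the 22 neuron and glia genes tested, 21 were lower in the epithelial cells and none were higher. Uchl1, an abundant neuronal enzyme, was at 0.0752, 0.388, 0.988 and 0 CPM against 35, 24.8, 24.6 and 15.2 CPM in the wall (-5.98 ± 0.64). Vip, a peptide transmitter of enteric neurons, was at 0.226, 0, 0.38 and 0.498 CPM against 69.3, 42, 37.9 and 23.6 CPM (-7.31 ± 0.55). Syt1, the calcium sensor of synaptic vesicles, had 0 counts in all epithelial libraries and 3342 in the wall. With 3 counts over the epithelial group as the floor, set against the mean CPM of the wall, it was at least 201-fold lower. By the same measure the glial gene S100b was at least 46.9-fold lower. The list's median was -6.0, or -5.41 with the 4 genes at 0 set to their bounds. Elavl4, an RNA-binding protein of neurons, gave a ratio of 56.9 (95% counting interval 19.4 to 276), and Sox10, the glial transcription factor, one of 78.3 (95% counting interval 21.6 to 647).

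Fibroblast and collagen genes were lower in 22 of 24 cases, with a median of -3.52. Col3a1, a fibrillar collagen, was at 10.4, 21.8, 25.2 and 61.8 CPM in the epithelial libraries and 393, 389, 546 and 451 CPM in the wall (-3.91 ± 0.48). Col1a1 (-3.22 ± 0.57) and the matrix proteoglycan Dcn (-3.64 ± 0.54) fell in the same way, and the small proteoglycan Ogn fell most of the list (-6.09 ± 0.76). Fibroblast transcripts were not evenly spread over the epithelial libraries. The list's score was 1.87, 2.86, 2.66 and 3.93 in replicates 1 to 4, against 5.9 to 6.12 in the wall, so replicate 1 was lowest and replicate 4 highest. All 6 pericyte genes tested were lower as well, among them the vessel-associated regulator Rgs5 at 0, 0, 0.152 and 1.99 CPM against 50.5, 25.9, 21 and 12.5 CPM (-5.96 ± 0.97).

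Ligands that mesenchymal cells make for the crypt moved with the connective tissue. In the list of Wnt, BMP and hedgehog ligands and their secreted modulators, 12 of 23 were lower and 2 were higher. Rspo3, an R-spondin that strengthens Wnt signalling, had 1 epithelial count and a wall-over-epithelium ratio of 333 (95% counting interval 59.6 to 13100). The BMP antagonist Grem1 had a ratio of 259 (95% counting interval 71.6 to 2140). Bmp4 was at 0.226, 0.582, 0.076 and 5.98 CPM against 19.4, 14.6, 22.7 and 18.8 CPM (-3.6 ± 0.94). The 2 members that were higher in epithelial cells were Shh and Bmp7 (1.03 ± 0.32). Shh, a hedgehog ligand, was at 1.96, 7.08, 4.03 and 2.24 CPM against 0.179, 0.0194, 0 and 0.0164 CPM (6.54 ± 1.02). Ihh, the other hedgehog ligand of the list, was more abundant in both tissues. It was at 113, 106, 80.6 and 107 CPM against 87.1, 110.1, 112 and 78.7 CPM, with groups that overlapped and an adjusted p of 0.78. Bmp7 lost its call on leaving out epithelial replicate 2 or 3 or wall replicate 1, 2 or 4 (adjusted p from 0.0567 to 0.088).

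Of the 6 genes listed for the interstitial cells of Cajal, the pacemakers of gut muscle, 5 were tested. In the epithelial cells 3 of them were lower, 1 was higher and 1 was not called, with a median of -1.6. Ano1, their chloride channel, was lower in the epithelial cells, at 101, 97.7, 99.8 and 99.1 CPM against 276, 284, 355 and 289 CPM (-1.6 ± 0.12). Kit, the receptor by which these cells are recognised, was higher in the epithelial cells, at 114, 234, 246 and 208 CPM against 47.9, 44.9, 39.9 and 31.5 CPM (2.29 ± 0.25, adjusted p = 0.000131). Kit and Ano1 therefore moved in opposite directions, with no overlap between groups for either. Both were present in every epithelial library, and which cells made them there was not tested.

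Vessel genes gave few calls. Of 17 endothelial genes tested, 2 were lower, Pecam1 (-1.38 ± 0.38) and the growth factor receptor gene Flt1 (-2.19 ± 0.66), and 0 were higher, with a median of -0.94. The list's score was 1.0, 2.67, 3.03 and 3.61 in the epithelial libraries and 3.31 to 3.69 in the wall, so replicate 1 was far below the wall, replicates 2 and 3 were somewhat below it and replicate 4 lay within its range. Cdh5, the junction protein of vessels, showed the same spread, with 0.451, 4.75, 7.07 and 11.4 CPM against 18.4, 13.6, 15.5 and 15.4 CPM and an adjusted p of 0.0988, or -1.03, adjusted p = 0.0167 without replicate 1. Without that library the median was -0.59, with 4 genes lower and 3 higher. Of the 3 blood genes tested, 0 were called. Hba-a1, an alpha globin with near-identical copies, was at 3.16, 22, 34 and 23.8 CPM against 10.8, 11.9, 6.35 and 47.1 CPM, with overlap. The coordinates that the files give for Hbb-b1 and Hbb-b2, 2 more genes of this list, lie at RefSeq's Hbb-bt. Flt1 lost its call on leaving out epithelial replicate 2 or wall replicate 1, 2, 3 or 4 (adjusted p from 0.0526 to 0.0656). Pecam1 lost its call on leaving out epithelial replicate 2 (adjusted p = 0.054).

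Immune genes were split by cell type. Of 17 macrophage and monocyte genes 13 were lower, with a median of -3.62. Csf1r, the receptor for macrophage growth factor, was at 0.752, 0.97, 1.9 and 3.36 CPM against 27.2, 29.7, 36.7 and 23.4 CPM (-4.12 ± 0.42), and Lyz2, the macrophage lysozyme, at 2.86, 4.07, 13.6 and 17.1 CPM against 104, 151, 131 and 68.4 CPM (-3.62 ± 0.54). The scavenger receptor gene Cd163 had 1 epithelial count and a ratio of 137 (95% counting interval 24.5 to 5410). Of 13 genes of MHC class II and dendritic cells 9 were lower, among them H2-Aa, a chain of the antigen-presenting molecule (-3.44 ± 0.41). Of 12 T cell genes 0 were called in either direction, with a median of -0.17. Cd3e, a subunit of the T cell receptor complex, was at 1.43, 2.13, 0 and 0.623 CPM against 1.03, 1.15, 1.36 and 0.609 CPM. The summed level of all 19 T cell genes measured was 18.7 to 32.9 CPM in the epithelial libraries and 15.5 to 34.3 CPM in the wall. Among 15 T cell genes tested without epithelial replicate 1, 1 was higher. Of 12 B and plasma cell genes 10 were lower, but their level in the wall itself varied. The score of the list was 0.65, 0.85, 0.99 and 1.52 in the epithelial libraries and 2.88, 3.56, 3.3 and 1.85 in the wall. Without wall replicate 2 5 genes of the list were called lower, and without epithelial replicate 1 as well 3.

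Genes for other cells the preparation could hold were sparse. Mast cell and neutrophil genes passed the filter in 5 of 14 cases. The mucosal mast cell protease gene Mcpt1 was higher in epithelial cells at 3.61, 2.42, 4.33 and 1.99 CPM against 0.448, 0.778, 0.853 and 0.773 CPM (2.11 ± 0.48), the tryptase gene Tpsb2 was higher too (1.96 ± 0.54), and Cma1, a chymase of other mast cells, was lower (-4.33 ± 0.77). Of 7 adipocyte genes tested 2 were lower, Fabp4 (-2.6 ± 0.74) and Plin4 (-5.92 ± 0.62). Among mesothelial genes the only call was Cldn15, a claudin that intestinal epithelium also makes, which was higher at 285, 484, 596 and 449.7 CPM against 46.7, 29.8, 29.8 and 40.7 CPM (3.63 ± 0.26). Squamous keratin genes gave 0 calls among 6 tested, 2 lower of 7 without epithelial replicate 1 and 1 higher without wall replicate 2. Tpsb2 lost its call on leaving out wall replicate 1, 2 or 3 (adjusted p from 0.0645 to 0.0807). Fabp4 lost its call on leaving out epithelial replicate 2 or wall replicate 1 (adjusted p from 0.0566 to 0.0666). On leaving out wall replicate 2, 1 enteroendocrine gene was higher against 2 in all libraries, as were 1 mast cell and neutrophil gene against 2 and 1 Wnt and BMP pathway gene against 2, and 1 endothelial gene was lower against 2. On leaving out epithelial replicate 1, 1 MHC class II or dendritic cell gene was higher, and 1 mesothelial and 1 blood gene were lower, each against 0.

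**Figure D2:**
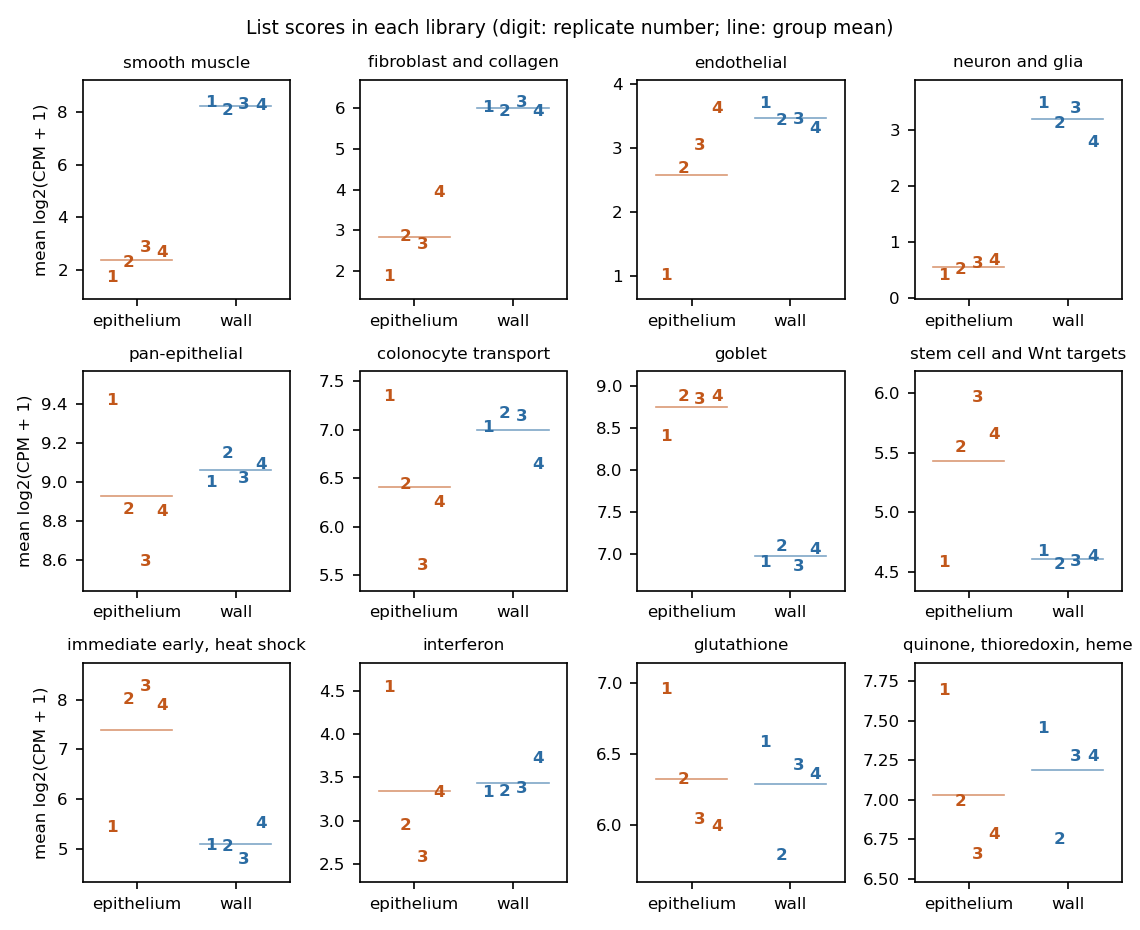
Score of 12 gene lists, the mean of log2(CPM + 1) over their members (y axis, with its own range in each panel), in each of the 4 epithelial (orange) and 4 wall (blue) transgenic libraries, with the replicate number as the symbol and a line at the group mean. Smooth muscle scores are 1.73 to 2.85 in the epithelium and 8.05 to 8.37 in the wall, and epithelial replicate 1 lies apart from replicates 2 to 4 for the endothelial, stem cell, immediate early and interferon lists.

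Few of the genes that mark epithelium in general differed between the isolated cells and the wall by the test. Of 20 pan-epithelial genes tested, 3 were higher in epithelial cells, 2 were lower and 15 were not called, and their median log2 fold change was -0.10. Epcam, an adhesion molecule of epithelia, was at 1768, 1133, 1047 and 1159 CPM against 1557, 1749, 1521 and 1697 CPM (-0.35 ± 0.18, adjusted p = 0.143). Cdh1, which encodes E-cadherin, was at 1267, 958, 822 and 941 CPM against 1096, 1313, 1289 and 1537 CPM (-0.39 ± 0.17, adjusted p = 0.09). The keratin gene Krt8 was at 8775, 4358, 3207 and 4582 CPM against 5072, 6324, 5822 and 5817 CPM (-0.14 ± 0.27, adjusted p = 0.721). For each of these 3 genes the groups overlapped, and in each the overlap came from epithelial replicate 1, the only epithelial library within or above the range of the wall. The genes called higher were the keratin gene Krt18 (1.0 ± 0.15), the protease gene Prss8 (0.81 ± 0.13) and the junction gene Tjp3 (0.58 ± 0.19), and the tight junction genes Cldn4 (-1.27 ± 0.34) and Ocln (-0.57 ± 0.14) were lower. Without epithelial replicate 1, 10 of the 20 genes were lower and 2 higher, with a median of -0.46, among them Epcam (-0.55, adjusted p = 0.00163), Cdh1 (-0.53, adjusted p = 0.00808) and Krt8 (-0.51, adjusted p = 0.0151). In that fit 22% of all genes were higher and 25.5% lower. Tjp3 lost its call on leaving out epithelial replicate 1, 2 or 4 or wall replicate 1, 2 or 3 (adjusted p from 0.0549 to 0.111).

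Transcription factors of the gut epithelium leaned to the isolated cells, with 12 of 23 higher, 1 lower and a median of 0.42. Isx, an intestine-specific homeobox gene that acts in vitamin A uptake, was at 179, 77.1, 38.3 and 42.6 CPM against 0.0448, 0.272, 0.347 and 0.197 CPM (8.47 ± 0.68, adjusted p = 2.93e-05). Cdx2, the homeobox gene that sets intestinal identity, was at 405, 330.3, 249.5 and 262 CPM against 18.4, 18.3, 13.3 and 14.9 CPM (4.26 ± 0.21, adjusted p = 2.52e-06). Every epithelial library exceeded every wall library for both genes. The wall pieces were distal and the stretch of the epithelial cells is not stated, so region and cell type cannot be told apart here. Cdx1, its close relative, gave 0.39 ± 0.13, adjusted p = 0.0336, and Hnf4a, a nuclear receptor of enterocytes, was at 1105, 778, 662 and 713 CPM against 870.3, 909, 1081 and 1092 CPM with an adjusted p of 0.248, or -0.46, adjusted p = 0.0108 without epithelial replicate 1. Klf5, a factor of dividing crypt cells, gave 0.41 ± 0.16 with an adjusted p of 0.067. Foxa3, which is made in secretory cells, was higher (1.79 ± 0.30), and the member that was lower was Ppargc1a, a coactivator of mitochondrial genes (-1.14 ± 0.24). With epithelial replicate 1 left out, 3 of the list were lower. Cdx1 lost its call on leaving out epithelial replicate 2 or 3 or wall replicate 1, 3 or 4 (adjusted p from 0.0524 to 0.108).

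Most goblet cell genes were higher in the isolated cells, though region and cell type cannot be told apart for them either. Of 18 tested, 14 were higher, 1 was lower, 15 did not overlap between groups, and the median was 1.99. Retnlb, a secreted antibacterial protein of goblet cells, was at 1169, 4362, 5742 and 5334 CPM against 15.7, 1.58, 2.75 and 0.987 CPM (9.68 ± 1.16, adjusted p = 0.000253). Spdef, the transcription factor of goblet cell maturation, was at 117, 310.4, 418 and 324 CPM against 25.9, 34.3, 34.3 and 31.1 CPM (3.22 ± 0.34, adjusted p = 0.000122). Fcgbp, a mucus protein, was at 6526, 13050, 8070 and 7869 CPM against 1519, 2226, 1933 and 2678 CPM (2.09 ± 0.25, adjusted p = 0.000244). In Retnlb and Spdef replicate 1 was the lowest of the epithelial libraries, though still above every wall library. Spink4 (3.02 ± 0.32) and Agr2, a folding enzyme of mucins (1.91 ± 0.20), were higher too. The gene whose symbol in the files is Clca3, and which RefSeq calls Clca1, is an abundant goblet cell product, with means of 19220 ± 4556 (SD, n = 4) and 3489 ± 484 CPM (2.46 ± 0.21). The list's own entry Clca1 matched another gene, RefSeq's Clca3a1, at low counts. Among the rest, Tff3, the trefoil peptide of mucus, was at 726, 320.2, 242 and 436 CPM against 441, 806, 544 and 862 CPM and Zg16, a mucus lectin, at 2345, 492, 167 and 741 CPM against 1136, 2767, 1578 and 2107 CPM, neither called (adjusted p = 0.174 and 0.247). Without epithelial replicate 1 both Tff3 (-1.0, adjusted p = 0.0128) and Zg16 (-2.03, adjusted p = 0.00633) were lower. With all libraries the member that was lower was Muc13, a membrane mucin of enterocytes as well as goblet cells (-1.17 ± 0.26).

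Of 11 tuft cell genes tested, 7 were higher and 1 was lower. Trpm5, the cation channel of chemosensory cells, was at 25.1, 40.8, 46.7 and 23.9 CPM against 9.18, 5.91, 5.37 and 3.03 CPM (2.55 ± 0.36), Dclk1 at 22.8, 35.3, 32.4 and 24.8 CPM against 19.7, 13.5, 16 and 9.42 CPM (0.98 ± 0.25), and the lineage factor Pou2f3 gave 2.22 ± 0.60. Ptgs1, the cyclooxygenase that other wall cells also make, was lower (-2.7 ± 0.27). Enteroendocrine genes were mixed, with 2 of 22 higher and 7 lower. Pyy, a peptide hormone of L cells, was at 19.9, 14.3, 21.9 and 22.8 CPM against 148, 123, 110.2 and 97.1 CPM (-2.6 ± 0.19, adjusted p = 1.55e-05), and Insl5, a peptide of colonic L cells, was lower as well (-2.58 ± 0.44). Chga, the granule protein common to these cells, was at 140, 58.9, 52.2 and 50.8 CPM against 110.3, 93.3, 74.9 and 61.8 CPM with an adjusted p of 0.721, and was lower without epithelial replicate 1 (-0.66, adjusted p = 0.018). The members that were higher, Nts (5.15 ± 1.05) and Cck (2.14 ± 0.54), were both at low levels. Several of the lower members, such as Scg2 (-5.62 ± 0.47) and Cpe (-4.45 ± 0.32), are granule and peptide-processing genes that neurons also use. Cck lost its call on leaving out wall replicate 2 or 3 (adjusted p from 0.0559 to 0.059).

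Crypt stem cell and Wnt target genes were higher in 11 of 16 cases, lower in 1, with a median of 1.05. Lgr5, the R-spondin receptor of crypt base stem cells, was at 6.62, 22.6, 32.5 and 32 CPM against 10.4, 9.56, 9.6 and 5.84 CPM (1.4 ± 0.43, adjusted p = 0.0268). Axin2, a feedback gene of Wnt signalling, was at 49.4, 114, 119.6 and 124 CPM against 40.1, 32.3, 30.8 and 41.8 CPM (1.49 ± 0.27, adjusted p = 0.00206), and Slc12a8, a transporter gene, at 212, 286, 401 and 338 CPM against 43.5, 40.9, 37 and 31.3 CPM (3.02 ± 0.21, adjusted p = 1.38e-05). For Lgr5 epithelial replicate 1 lay below 3 of the 4 wall libraries while replicates 2 to 4 lay above all of them, and leaving out any 1 of the other 7 libraries ended the call (adjusted p from 0.0505 to 0.0835). Ascl2, a stem cell factor, had a similar arrangement, with 2.26, 11.7, 16.6 and 16.6 CPM against 8.42, 7.55, 8.12 and 8.95 CPM, and had an adjusted p of 0.435 with all libraries but was higher without replicate 1 (0.86, adjusted p = 0.00781). The stem cell score was 4.58, 5.54, 5.96 and 5.65 in the epithelial libraries and 4.56 to 4.67 in the wall, and 15 of 17 genes were higher without replicate 1. Nkd1, a Wnt feedback gene, was lower (-2.21 ± 0.30). Proliferation genes were higher in 13 of 20 cases and lower in 0, by modest amounts with a median of 0.74. The largest differences were those of Foxm1, a factor of mitotic genes (1.44 ± 0.19), and Rrm2, a subunit of ribonucleotide reductase (1.25 ± 0.21). Mki67 was at 187, 243, 242 and 294 CPM against 183, 197, 158 and 161 CPM (0.47 ± 0.16, adjusted p = 0.0395), and Pcna at 88.8, 93.8, 97.2 and 103 CPM against 96.7, 98.2, 93.9 and 92.2 CPM (adjusted p = 0.972). Mki67 lost its call on leaving out epithelial replicate 2, 3 or 4 or wall replicate 1, 2, 3 or 4 (adjusted p from 0.0528 to 0.126).

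Genes of the absorptive surface went the other way. In the colonocyte list 13 of 24 genes were lower in the epithelial cells and 7 were higher, with a median of -0.64. Slc26a3, the chloride and bicarbonate exchanger of surface colonocytes, was at 416, 204, 61.4 and 154 CPM against 1079, 1200, 1616 and 899 CPM (-2.52 ± 0.49, adjusted p = 0.0032). The water channel gene Aqp8 was at 247, 78.5, 27.8 and 61.1 CPM against 703, 707, 627 and 471 CPM (-2.6 ± 0.57, adjusted p = 0.00583). Atp12a, the proton and potassium pump of the distal colon, was at 1.58, 2.23, 5.47 and 2.49 CPM against 825, 520, 1103 and 662 CPM (-8.03 ± 0.46, adjusted p = 4.4e-06). No epithelial library reached the wall for these 3 genes, and for the exchanger and the water channel replicate 1 came nearest. Scnn1g, a subunit of the sodium channel of the distal colon, was at 2.71, 1.36, 0.076 and 0.124 CPM against 50.3, 79.8, 66.5 and 8.44 CPM (-5.51 ± 0.91), and the subunit genes Scnn1a (-0.67 ± 0.16) and Scnn1b (-1.49 ± 0.34) were lower too. Car1, a carbonic anhydrase of colonocytes, was at 18240, 3399, 899.9 and 2189 CPM against 4671, 2075, 5572 and 3936 CPM and was not called (0.60 ± 0.78, adjusted p = 0.572), but its sign rested on replicate 1. Without that library it was at -0.91, adjusted p = 0.111, and without wall replicate 2 as well it was lower, at -1.16 (adjusted p = 0.042). The genes that were higher included Slc51a, a subunit of the bile acid exporter, listed in the files as Osta, at 182, 28.7, 8.97 and 20.1 CPM against 0.179, 0.175, 0.0947 and 0.0329 CPM (8.87 ± 1.19, adjusted p = 0.000476). Slc12a2, the chloride loader of secreting crypt cells (1.32 ± 0.25), Cftr, their chloride channel, and Guca2a, the peptide guanylin (1.76 ± 0.44), were also higher, Cftr by 0.78 ± 0.16. Without replicate 1 the list gave 13 lower and 6 higher, with a median of -0.85. Since the wall pieces were distal and the stretch of the epithelial cells is not stated, region and cell type cannot be told apart for these genes.

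The Hox genes, which pattern the gut from front to back by their number within a cluster, separated by that number in clusters B and D. All 39 Hox genes of the files were taken, a list added after a Hox gene had appeared among the most changed genes, and 28 passed the filter. Of paralogues 1 to 4, 5 of 9 were higher in the epithelial cells and 0 lower, with a median log2 fold change of 1.04. Of paralogues 5 to 9, 7 of 11 were higher and 1 was lower, with a median of 1.53. Of paralogues 10 to 13, 0 of 8 were higher and 5 were lower, with a median of -4.63. Hoxd13 was at 0.0752, 0.679, 0.456 and 0.373 CPM against 142, 138, 159.7 and 169.6 CPM (-8.62 ± 0.32, adjusted p = 4.66e-07), and Hoxb13 at 33.6, 44.7, 51.8 and 38.1 CPM against 375, 384, 397 and 574 CPM (-3.36 ± 0.20, adjusted p = 6.51e-06). Hoxb8, in contrast, was at 32.9, 38.8, 51.2 and 30.9 CPM against 0.582, 0.551, 0.347 and 0.609 CPM (6.18 ± 0.27, adjusted p = 1.21e-06), with all epithelial libraries far above the wall. Hoxd11 and Hoxd12 had 1 and 3 epithelial counts, with wall-over-epithelium ratios of 470 (95% counting interval 84.3 to 18600) and 245 (95% counting interval 83.9 to 1190). The other 3, Hoxa10, Hoxa11 and Hoxa13, were not called, though Hoxa11 was higher without epithelial replicate 1 (1.71, adjusted p = 0.00178). Hoxa13 was at 11.9, 14.6, 4.26 and 18.6 CPM against 24.4, 19.4, 26.8 and 17.9 CPM with an adjusted p of 0.0963. Hox genes are also made by the mesenchyme of the wall, and the wall pieces came from the distal end, so the stretch of colon sampled and the loss of other cells cannot be told apart in this contrast.

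**Figure D3:**
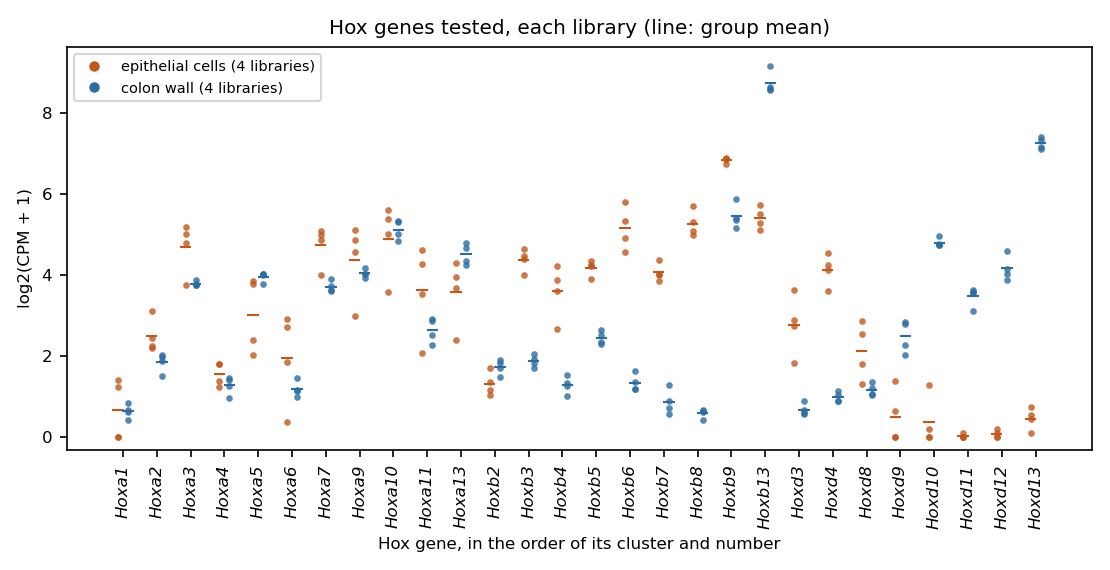
Level of the 28 tested Hox genes as log2(CPM + 1) (y axis), in the order of cluster and paralogue number (x axis), with a point for each of the 4 epithelial (orange) and 4 wall (blue) transgenic libraries and a line at each group mean. Hoxb3 to Hoxb9 are higher in the epithelial cells, while Hoxb13 and Hoxd9 to Hoxd13 are higher in the wall.

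Antimicrobial and defence genes differed by large amounts in both directions, and here too region and cell type cannot be told apart. Of 18 tested, 9 were higher and 4 lower. Reg3b, a secreted lectin that belongs to a family of close copies, was at 159, 19, 27.4 and 11 CPM and had 2 counts over the 4 wall libraries, which gives an epithelium-over-wall ratio of 8280 (95% counting interval 2290 to 68400). Its relative Reg3g was at 61.9, 10.4, 19.4 and 7.35 CPM against 0.269, 0.48, 0.316 and 0.0329 CPM (6.42 ± 0.91). Ang4, an antimicrobial ribonuclease, was at 1409, 2740, 3304 and 2796 CPM against 63.3, 4.8, 8.4 and 7.94 CPM (6.94 ± 0.95, adjusted p = 0.000521), and Itln1, a lectin of goblet cells, at 103, 271, 441 and 364 CPM against 2.28, 2.29, 1.96 and 1.81 CPM (7.14 ± 0.46, adjusted p = 9.2e-06). The members that were lower were Saa1, serum amyloid A (-3.74 ± 0.48), Lypd8, an anti-flagellar surface protein listed as 2210415F13Rik (-2.22 ± 0.59), the protease inhibitor Slpi (-2.62 ± 0.70) and the lysozyme gene Lyz1 (-2.76 ± 0.78). Lyz1 lost its call on leaving out epithelial replicate 2 or wall replicate 2 or 3 (adjusted p from 0.0517 to 0.0553). Pigr, the receptor that carries immunoglobulin A across the epithelium, was at 6601, 7295, 6083 and 6341 CPM against 4333, 3601, 4311 and 6626 CPM and had an adjusted p of 0.0705 with all libraries but was higher without wall replicate 4 (0.65, adjusted p = 0.0119).

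Over all genes with a mean of at least 10 CPM, the 10 highest fold changes included Reg3b, Retnlb, Slc51a and Isx, given above. Ugt2b5, a glucuronosyltransferase with close copies, had an epithelium-over-wall ratio of 3620 (95% counting interval 1240 to 17600). Pla2g4c, a phospholipase, was at 134, 380.2, 251 and 434 CPM against 0.269, 0.415, 0.284 and 0.576 CPM (9.5 ± 0.49). Acaa1b, a peroxisomal thiolase (7.79 ± 0.58), and H2-T3, a nonclassical MHC class I gene (7.59 ± 0.68), were also among them, as were the genes listed as 1110032A04Rik, RefSeq's Sptssb (8.94 ± 0.79), and 1600029D21Rik, RefSeq's Plet1 (7.57 ± 0.43). The 10 lowest included Ckm, Hoxd13, Lmod1, Atp12a and Des, given above, and Fxyd4, a regulator of the sodium pump (-9.11 ± 0.67), Casp14, a caspase of cornifying cells (-8.76 ± 0.51), and Optc, a matrix proteoglycan (-8.42 ± 0.44). Adam33, a metalloprotease, had a wall-over-epithelium ratio of 290 (95% counting interval 99.2 to 1410) and Prph, a neuronal filament protein, one of 277 (95% counting interval 94.8 to 1350). Per length, on the authors' deposited TPM scale, the 10 genes of highest mean in the epithelial cells were 1810030J14Rik, which is RefSeq's Mptx1, the secretory cell genes Spink4, Retnlb, Clca3, Agr2 and Ang4, and Car1, Eef1a1, Rpl41 and Gm20594. Those of the wall were Lypd8, Eef1a1, Car1, Lgals4, Fth1, Zg16, 1810030J14Rik, Krt8, Tpt1 and Sprr2a1. Of these 1810030J14Rik was higher in the epithelial cells (1.61 ± 0.18) and Sprr2a1, one of several near-identical copies, was lower (-1.24 ± 0.34), while Lgals4, a galectin of the gut lining, was not called with all libraries (-0.38 ± 0.23, adjusted p = 0.216) and was lower without epithelial replicate 1 (-0.66, adjusted p = 0.00242). Fth1, a ferritin chain and known NRF2 target, was not called with all libraries (-0.69 ± 0.42, adjusted p = 0.228) and was lower without that one (-1.39, adjusted p = 0.00019). Eef1a1, a translation factor that every cell uses, gave -0.01 ± 0.13, adjusted p = 0.965. Sprr2a1 lost its call on leaving out epithelial replicate 2 (adjusted p = 0.0564).

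NRF2 itself was higher in the epithelial cells. Nfe2l2, the gene that encodes it (chromosome 2, 75675519 to 75704641 on the minus strand), was at 360, 352, 292 and 235 CPM in the epithelial libraries and 189, 147, 200.3 and 235 CPM in the wall, epithelial replicate 4 and wall replicate 4 being nearly equal (0.69 ± 0.18, adjusted p = 0.0157). Without epithelial replicate 2 it was not called (0.62, adjusted p = 0.051). The files give 1 value for Nfe2l2 and do not separate the gene from the transgene. In the VilCre control genotype its level was 167 ± 21.9 CPM in epithelial cells and 125 ± 19 CPM in the wall (SD, n = 4 each), with a log2 fold change of 0.41 ± 0.16 and an adjusted p of 0.0608. The difference between the genotypes was 0.21 ± 0.24 (adjusted p = 0.887). Among 13 regulators and partners, 2 were higher and 2 lower, or 1 and 1 without wall replicate 2. Keap1, which targets NRF2 for degradation, was at 102, 102, 84.2 and 84 CPM against 87, 68.4, 76.5 and 63.2 CPM (adjusted p = 0.0811). Mafk, a small Maf partner, was higher (0.71 ± 0.21), and Cul3, the scaffold of the KEAP1 ligase, was lower (-0.53 ± 0.13). Mafk lost its call on leaving out epithelial replicate 4 or wall replicate 2, 3 or 4 (adjusted p from 0.0571 to 0.0726).

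In the glutathione and quinone lists, which hold genes known as NRF2 targets, few members were called in either direction. The list of NADPH supply is given further down. Of 33 glutathione genes tested, 5 were higher and 2 lower, with a median of 0.11. Of 26 genes of quinone reduction, thioredoxin and heme breakdown, 1 was higher and 1 lower, with a median of -0.07. These shares lie below the 18.7% and 19.7% of all genes. Gclc, the catalytic subunit of glutathione synthesis, was at 719, 469.5, 232 and 191 CPM against 731, 104, 688 and 375 CPM (-0.23 ± 0.58, adjusted p = 0.781). Its partner Gclm was at 264, 191, 126 and 84.2 CPM against 254, 45.1, 214 and 177 CPM (-0.05 ± 0.49, adjusted p = 0.945), and Nqo1, the quinone reductase, at 225, 109, 68.6 and 72.3 CPM against 123, 21.2, 105 and 122 CPM (0.36 ± 0.53, adjusted p = 0.629). In all 3 genes epithelial replicate 1 was the highest epithelial library and wall replicate 2 was the lowest of the 8. Slc7a11, the cystine importer (0.73 ± 0.57, adjusted p = 0.344), Txnrd1, thioredoxin reductase (0.42 ± 0.23, adjusted p = 0.184), and Hmox1, heme oxygenase (-0.04 ± 0.41, adjusted p = 0.955), were not called either. Leaving out epithelial replicate 1, the glutathione list gave 6 higher and 5 lower of 33. The quinone list gave 1 higher and 8 lower of 26, beside 22% higher and 25.5% lower of all genes in that fit. With both of those libraries left out the glutathione list gave 4 higher and 8 lower (median -0.24), and the quinone list 1 higher and 11 lower (median -0.51), beside 18.3% higher and 21.7% lower of all genes in that fit. Without them Gclc was lower in the epithelial cells (-1.04, adjusted p = 0.0461), Nqo1 was at -0.51 (adjusted p = 0.0536) and Gclm at -0.72 (adjusted p = 0.0648).

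A few genes of the glutathione and quinone lists were called with all libraries in. Gpx2, the glutathione peroxidase of the gut epithelium, was at 769, 1397, 1581 and 1181 CPM against 606, 542, 537 and 552 CPM (1.14 ± 0.20, adjusted p = 0.00209). Prdx6, a peroxiredoxin, was at 1733, 626, 310 and 448 CPM against 5037, 4704, 4944 and 5527 CPM and so was lower in the epithelial cells (-2.7 ± 0.48, adjusted p = 0.00211), as was the secreted peroxidase gene Gpx3 (-2.1 ± 0.52). NADPH-supplying enzymes leaned upward, with 5 of 9 higher and 0 lower, a count that was the same without epithelial replicate 1, wall replicate 2 or both. The same contrast in VilCre control mice gave 4 of 9 higher and 0 lower. The list's median was 0.539 there and 0.585 in the transgenic mice. Me1, malic enzyme, was at 107, 90.4, 82.6 and 74.3 CPM against 33, 15.9, 27.4 and 27.6 CPM (1.78 ± 0.22, adjusted p = 0.00029), and Tkt, transketolase, at 1033, 762, 680.4 and 641 CPM against 541, 393, 493 and 446 CPM (0.73 ± 0.18, adjusted p = 0.00936), without overlap in either gene. G6pdx, which opens the pentose phosphate pathway, was at 125, 108, 101 and 84.7 CPM against 114, 87.1, 105 and 144 CPM (adjusted p = 0.68). In the RefSeq windows the antioxidant response element TGACNNNGC, searched on both strands, was present in 5 of 29 glutathione genes with an entry (17.2%), in 4 of 24 of the quinone list (16.7%) and in 3 of 8 of the NADPH list (37.5%), against 14% of all genes.

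**Figure D4:**
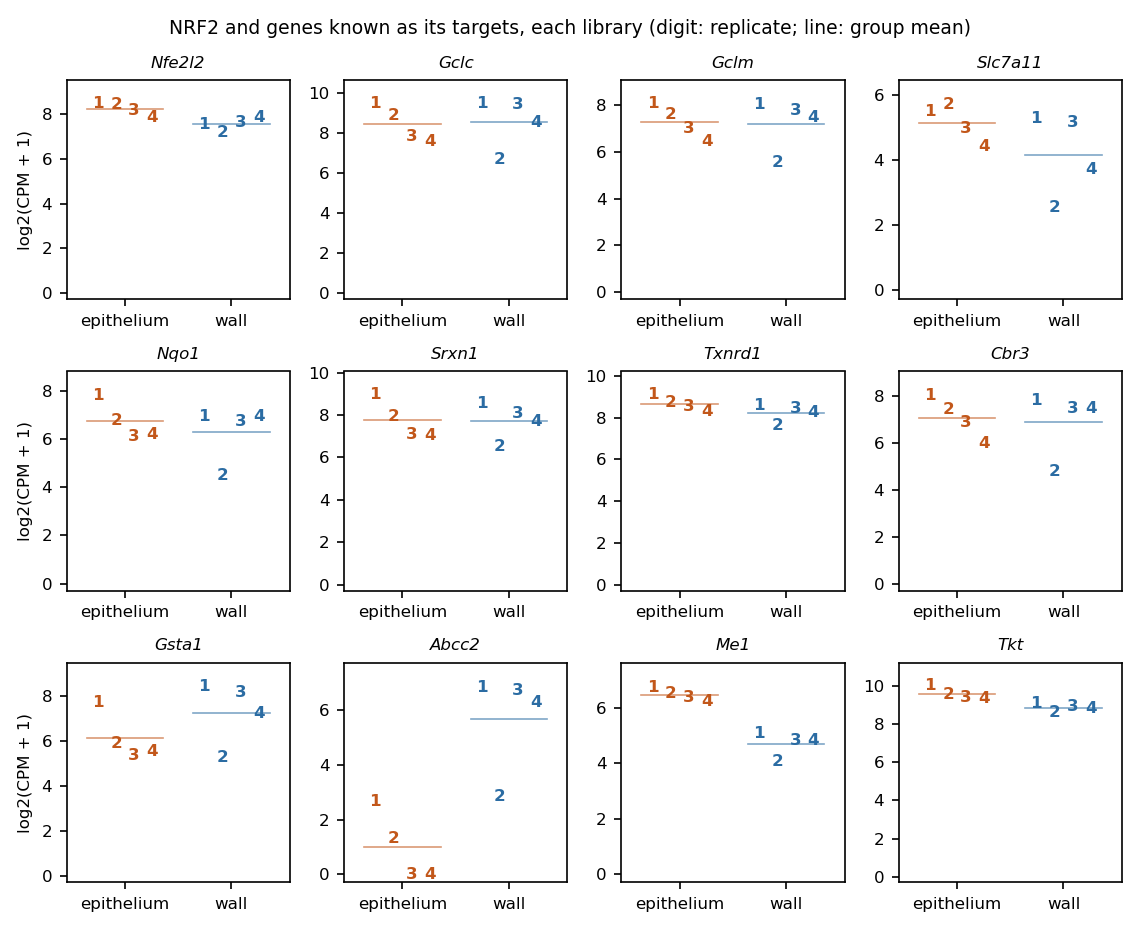
Level of Nfe2l2 and of 11 genes known as NRF2 targets as log2(CPM + 1) (y axis, with its own range in each panel), in the 4 epithelial (orange) and 4 wall (blue) transgenic libraries, with the replicate number as the symbol and a line at the group mean. Wall replicate 2 is the lowest wall library for Gclc, Gclm and Nqo1, and the groups do not overlap for Me1 and Tkt.

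Drug metabolism and efflux genes were split, with 7 of 39 higher and 8 lower, shares near those of all genes. Abcc2, an efflux pump for conjugates, was at 5.26, 1.46, 0 and 0 CPM against 114, 6.17, 104 and 76.5 CPM (-5.38 ± 1.15, adjusted p = 0.00517). Wall replicates 1, 3 and 4 lay far above the other 5 libraries for this gene. Ugt1a1, which conjugates bilirubin and shares exons with its neighbours in the gene cluster, was higher (3.22 ± 0.57). Cyp2f2, a cytochrome P450, was lower at 1.05, 0.097, 0 and 0 CPM against 31.5, 32.9, 26.9 and 30.2 CPM (-6.54 ± 0.70), and Aldh3a1, an aldehyde dehydrogenase, had 0 epithelial counts and was at least 33.7-fold lower. Abcc3 and Abcb1a, pumps of the basal and luminal membranes, gave 0.68 ± 0.40 and -0.85 ± 0.41 with adjusted p-values of 0.207 and 0.131, and Abcb1a was lower without epithelial replicate 1 (-1.36, adjusted p = 0.00528). With epithelial replicate 1 left out, 15 genes of the list were lower and 6 higher, and without wall replicate 2 as well 16 and 5. Of 19 genes of fatty acid oxidation tested 4 were higher and 1 was lower, Ppara, a nuclear receptor for fatty acids, among the higher (1.57 ± 0.36). Without epithelial replicate 1 the list gave 3 higher and 5 lower, and without wall replicate 2 it gave 3 higher and 0 lower. Of 18 genes of cholesterol synthesis and uptake 9 were higher and 0 lower, Lss, the enzyme that forms lanosterol, among the higher (1.45 ± 0.16).

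Genes that cells switch on within minutes of being disturbed were high in 3 of the 4 epithelial libraries. Of 20 immediate early and heat shock genes 16 were higher and 0 lower, with a median of 2.47. Fos, a subunit of the AP-1 factor, was at 259.9, 1744, 2287 and 1981 CPM against 54.9, 70.7, 47.5 and 127 CPM (4.38 ± 0.64, adjusted p = 0.000713), and Jun, its partner, at 226, 881, 987 and 966 CPM against 99.4, 89, 77.4 and 128 CPM (2.96 ± 0.42, adjusted p = 0.000621). Fosb was at 27.3, 655, 1101 and 946 CPM against 2.82, 1.8, 0.884 and 15.5 CPM (7.0 ± 1.3, adjusted p = 0.00258). In each of these genes replicates 2 to 4 were several times higher than replicate 1, and wall replicate 4 was the highest of the wall. Hspa1a, an inducible heat shock protein with a near-identical copy, was at 3.69, 182, 132 and 34 CPM against 18.8, 12.4, 17 and 19.2 CPM (2.39 ± 0.84, adjusted p = 0.0467), with replicate 1 below all wall libraries and the call was lost on leaving out epithelial replicate 2 or 3 or any 1 wall library. The list's median without replicate 1 was 2.82, with 18 genes higher. Cell type and cell isolation are confounded in this design and cannot be told apart.

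Stress and clock genes were taken as further lists. In the list of the unfolded protein response and ATF4 targets 13 of 16 genes were higher and 1 lower, with a median of 0.63. Atf4, the transcription factor, was at 353, 417, 476 and 482 CPM against 209, 217, 178 and 199 CPM (1.11 ± 0.14, adjusted p = 0.000316), its target Asns, asparagine synthetase, was higher (1.89 ± 0.20), and Dnajb9, a cochaperone of that response, was lower (-0.59 ± 0.18). In all 9 genes of the list were called higher without wall replicate 2. Dnajb9 lost its call on leaving out epithelial replicate 2 or 4 or wall replicate 2 or 3 (adjusted p from 0.0729 to 0.0899). Interferon response genes gave 3 higher and 1 lower of 20, and here replicate 1 was the high library, with a score of 4.54 against 2.57 to 3.33 in the others and 3.32 to 3.72 in the wall. Without that library the list gave 2 higher and 6 lower of 21, and its median turned from 0.19 to -0.24. Mx1, an antiviral GTPase, was higher in all 4 epithelial libraries at 12.1, 15.5, 14.4 and 20.9 CPM against 1.3, 1.49, 1.48 and 3.58 CPM (2.98 ± 0.39, adjusted p = 0.000366), and Gbp2, another GTPase, was lower (-3.49 ± 0.59). Irf7, the factor that amplifies the response, was at 175, 40.5, 42.1 and 62.9 CPM against 54.8, 54.1, 56.6 and 52.1 CPM (adjusted p = 0.323). Circadian clock genes were lower in 6 of 17 cases and higher in none. Dbp, a clock output factor, was at 21.1, 21.2, 42.4 and 19.3 CPM against 206, 126, 196 and 49.9 CPM (-2.47 ± 0.44, adjusted p = 0.00209) and the related Hlf at 0.0752, 0.097, 0.076 and 0.249 CPM against 13.4, 9.62, 15.8 and 8.03 CPM (-6.65 ± 0.49, adjusted p = 1.55e-05), while Arntl, a core clock gene, was not called (-0.40 ± 0.26, adjusted p = 0.259). Without wall replicate 2 the list gave 3 lower of 17, near the share of all genes in that fit. The labels give no time of day for tissue collection.

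The same contrast was taken in VilCre control mice of the same strain, which share no library with the transgenic groups. There 15.9% of 14525 genes were called higher in epithelial cells and 21.7% lower. Across the 14314 genes tested in both genotypes the log2 fold changes had a Pearson correlation of 0.90, a description over genes that are not independent. Of the calls made in transgenic mice 70.4% were called in the same direction in control mice, of the calls in control mice 72.6% were called so in transgenic mice, and 5 genes were called in opposite directions. In control mice the log2 fold change was -8.03 for Acta2, -0.43 for Epcam, 2.96 for Spdef, -2.87 for Slc26a3, -9.23 for Hoxd13, 5.46 for Hoxb8 and 1.29 for Me1. Nqo1 gave 1.18 ± 0.36 in control mice and was called there (adjusted p = 0.0266), and Abcc2 gave -2.26 ± 0.39.

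**Figure D5:**
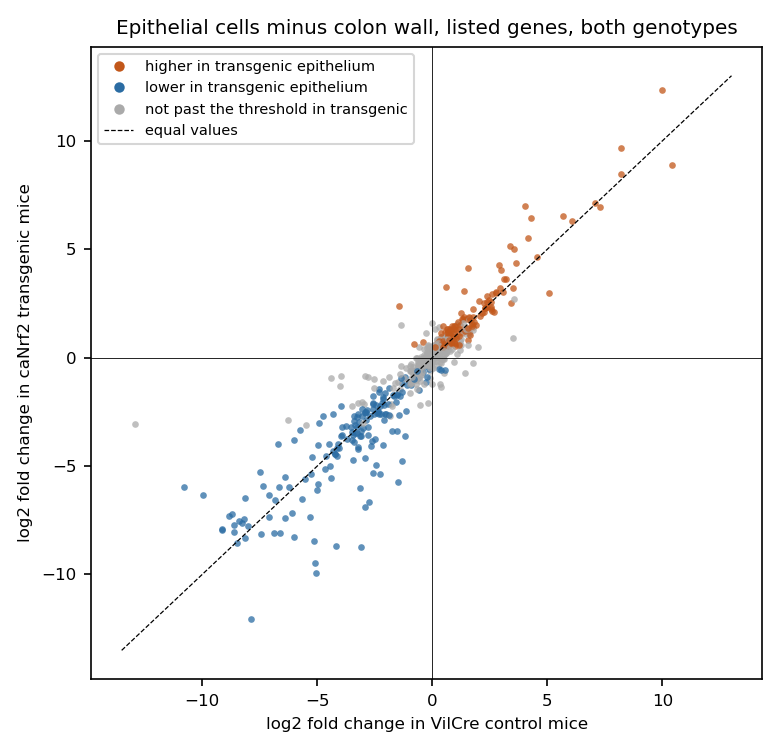
Log2 fold change of epithelial cells over colon wall in VilCre control mice (x axis) and in caNrf2 transgenic mice (y axis) for the 585 listed genes tested in both, with orange and blue for genes called higher and lower in the transgenic mice, grey for the rest and a dashed line at equal values. Points lie along the line, and edgeR called 0 of the differences between genotypes at an adjusted p of 0.05, against 66 by DESeq2 and 814 by limma voom over all genes.

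The difference between genotypes was tested directly as an interaction over 16 libraries. Of 15073 genes tested 0, or 0%, passed an adjusted p of 0.05 with edgeR's quasi-likelihood test, whose smallest adjusted p was 0.175, while 1194 had an unadjusted p below 0.05. DESeq2's Wald test called 66 and limma voom with sample weights 814. With epithelial replicate 1 of the transgenic mice and epithelial replicate 3 of the control mice, whose omission alone gave the most calls in the control contrast, left out together, edgeR called 67, of which 18 were higher and 49 lower in the transgenic contrast. The 10 genes of smallest p with all libraries in were Ccdc88a, Tug1, Fkbp7, BC037032, Stk40, Nipal2, Atf5, A930001N09Rik, Hbp1 and Gpr110. Ccdc88a, an actin-binding protein, was at 0.0752, 0, 0 and 0 CPM against 4.75, 3.62, 5.53 and 4.39 CPM in transgenic mice. Tug1, a long noncoding RNA, had a log2 fold change of -1.09 ± 0.14 in transgenic and -0.17 ± 0.12 in control mice. Atf5, a stress-response factor, gave 0.63 ± 0.19 in transgenic and -0.78 ± 0.19 in control mice, a difference of 1.36 ± 0.27 (adjusted p = 0.218). Atf5 lost its call on leaving out epithelial replicate 2 or 4 or wall replicate 2, 3 or 4 (adjusted p from 0.0554 to 0.0832). For Nqo1 the difference was -0.88 ± 0.72 (adjusted p = 0.822), for Gclc -0.67 ± 0.69 (adjusted p = 0.862) and for Abcc2 -3.19 ± 1.44 (adjusted p = 0.616). A difference that missed the threshold is not shown to be absent.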

How the data were processed

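The 8 transgenic libraries, and 8 control libraries for the genotype comparison, were grouped by their titles. The authors deposited estimated counts, not divided by length or depth, and TPM values for each RefSeq transcript, and the submitters' processing notes name RSEM 1.2.11, FastQC and the build mm10. Aligner and strand setting are not stated in them, so paralogues and overlapping antisense genes may share reads. Deposited counts were summed per gene symbol and rounded to whole numbers, and no column of per-sample values was left unmapped (0). Genes were filtered with filterByExpr (minimum count 10, minimum total 15), scaled by TMM and tested with edgeR 4.0.16 in R 4.3.3 (quasi-likelihood test, Benjamini-Hochberg adjustment), after a check on simulated data. Totals of 7736523 to 154336039 counts per library set the precision of low counts. The libraries were taken by title, but the comparison they belong to, the listed genes and the lists were proposed with earlier results of these data known. Of 660 list entries 641 matched by symbol and 7 through an older symbol, and 12 are not analysed here. Results for a few members are not reported here. RefSeq promoter windows (GRCm38.p6) were matched by symbol.

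The rule for named genes took each list's first 3 measured members, up to 2 further called members of largest fold change with a mean of at least 1 CPM, up to 3 called against the list's direction, the 10 highest and 10 lowest fold changes among called genes with a mean of at least 10 CPM, the 10 highest mean TPM per group, the 10 smallest p of the genotype difference, and Nfe2l2. All Hox genes were added later, and 21 genes were chosen after their values were seen: Asns, Cdx1, Cftr, Cpe, Cul3, Gpx2, Guca2a, Hspb6, Ihh, Myocd, Prss8, Scnn1a, Scnn1b, Scnn1g, Slc12a2, Smtn, Synm, Tjp3, Tpsb2, Uchl1 and Vip. Alternatives were other scaling (RLE, none), other filters, DESeq2 1.42.0, limma 3.58.1 voom, glmTreat, a replicate block, thinning, a fit of 16 libraries and leaving out each library.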

Additional observations from a re-analysis of the deposited data

Results flagged for a closer look

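In 436 groups of 4 libraries, 1 for each named gene or list score in each tissue, 45 had 1 library whose gap to the nearest other, as a share of the group's range on the log2(CPM + 1) scale, was above Dixon's 95% critical value for 4 samples. Chance flags about 1 in 20 groups where values vary continuously. That rate does not hold where 3 libraries are at 0, since any count in the remaining library is then flagged. For Ccdc88a and Cd163 such a flag rests on 1 count. Epithelial replicate 1 was the library apart in 15 of the 45 flagged groups. Epithelial replicate 1 was low, in CPM or score against the other 3 libraries, for 1810030J14Rik (5575 against 7809 to 8350), Axin2 (49.4 against 114 to 124), Cftr (118 against 176 to 182), Fos (259.9 against 1744 to 2287), Fosb (27.3 against 655 to 1101), Jun (226 against 881 to 987), the goblet cell score (8.4 against 8.84 to 8.88) and the immediate early score (5.43 against 7.88 to 8.27). It was high for Chga (140 against 50.8 to 58.9), Cyp2f2 (1.05 against 0 to 0.097) and the adipocyte score (1.96 against 1.64 to 1.69). It was the only library of its group with counts for BC037032 (0.15 CPM), Ccdc88a (0.0752 CPM), Cd163 (0.0752 CPM) and Elavl4 (0.226 CPM). Epithelial replicate 2 was high for Ptgs1 (7.66 against 4.33 to 4.73). It was the only library of its group with counts for Myocd (0.194 CPM) and Rspo3 (0.097 CPM). Epithelial replicate 3 was low, in CPM or score against the other 3 libraries, for Gbp2 (0.152 against 3.54 to 4.98). It was high for Cck (2.28 against 1.25 to 1.36), Dbp (42.4 against 19.3 to 21.2) and Lyz1 (10.3 against 0.526 to 1.12). It was the only library of its group with counts for Fxyd4 (0.608 CPM) and Hoxd11 (0.076 CPM). Epithelial replicate 4 was high for Hlf (0.249 against 0.0752 to 0.097), Ogn (3.86 against 0.15 to 0.228), Rgs5 (1.99 against 0 to 0.152), Rpl41 (1648 against 1348 to 1384), Scg2 (1.74 against 0.376 to 0.485) and the MHC class II score (2.42 against 1.73 to 1.79). It was the only library of its group with counts for Prph (0.373 CPM).

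Wall replicate 1 was high for Acta2 (2817 against 2163 to 2215), Fabp4 (59 against 22.3 to 25.6) and Shh (0.179 against 0 to 0.0194). Wall replicate 2 was low, in CPM or score against the other 3 libraries, for Abcc2 (6.17 against 76.5 to 114), Gbp2 (29.8 against 37.4 to 37.8), Lmod1 (85.2 against 122 to 129) and Nqo1 (21.2 against 105 to 123). Wall replicate 3 was high for the macrophage score (4.13 against 3.71 to 3.75). Wall replicate 4 was low, in CPM or score against the other 3 libraries, for Hoxd11 (7.66 against 10.8 to 11.5) and Lgr5 (5.84 against 9.56 to 10.4). It was high for Hoxb13 (574 against 375 to 397), Mx1 (3.58 against 1.3 to 1.49), the blood score (2.6 against 1.15 to 1.33) and the interferon score (3.72 against 3.32 to 3.37).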

How the results depend on the processing

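The transgenic contrast gave 5453 calls with RLE scaling, 6038 with no filter beyond 1 count, 6204 with DESeq2 and 7447 with limma voom, and 1820 (454 higher, 1366 lower) against a fold change of 2 by glmTreat, a stricter question. Leaving out 1 library gave 4037 to 7086 calls (1921 to 3279 higher, 2116 to 3807 lower). The control contrast gave 9724 calls with voom (4502 higher, 5222 lower), and 4138 to 7707 with 1 library left out (1570 to 3377 higher, 2568 to 4330 lower), the most without epithelial replicate 3. The genotype difference gave 0 calls with RLE scaling and without a filter, 66 with DESeq2 (28 higher, 38 lower) and 814 with voom (317 higher, 497 lower). With 1 library left out it gave 0 to 14 (0 to 8 higher, 0 to 6 lower): 1 without transgenic epithelial replicate 1, 3 without control epithelial replicate 3, and 14 without control wall replicate 4. Without both of those epithelial libraries it gave 67 (18 higher, 49 lower). The cause was not tested.

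Of 182 named genes tested 148 were called, 121 of them in every alternative run that tested the gene. The glmTreat run was left out of this count, and a run in which a gene failed the filter was passed over. Car1 turned from 0.60 to -1.16 without transgenic epithelial replicate 1 and wall replicate 2. The calls of Mki67, Hspa1a, Cdx1, Tjp3, Lgr5, Bmp7, Atf5, Flt1, Mafk, Dnajb9, Tpsb2, Cck, Fabp4, Hbp1, Lyz1 and Nipal2 were each lost under 3 or more alternatives. Replicate numbers were not taken as pairs. Deviations of log2(CPM + 1) from the group mean had correlations of -0.11 to -0.02 between same-numbered libraries. By this measure 0 of 4 epithelial libraries correlated best with their own number. With so few libraries in unlike tissues, that check cannot exclude that same-numbered libraries share an animal. A fit with the replicate number as a block gave 4185 calls in transgenic mice (1910 higher, 2275 lower), 5192 in control mice and 0 for the difference. Depth limits genes near 1 count in the epithelial libraries, the shallower group. Thinned to 7736498 counts per library, the transgenic contrast gave 4951 calls.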
